A study of Homo sapiens with 19 samples.

Results

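The regions described here are HIF-2α sites that were called in HIF-1α re-expressing 786-O cells but not in control cells, at places where HIF-1α itself was not called. They are the windows of the HIF-2α peak list of the re-expressing cells that shared no base with any HIF-2α peak of the control cells and none with any HIF-1α peak of the re-expressing cells. The rule selected 345 of the 1350 HIF-2α sites of these cells, out of 29309 windows in the 7 peak lists of the series. The control HIF-2α list held 1719 sites, and 819 of the 1350 shared a base with it. Gained therefore means newly called here, and not newly bound. These gained sites were chosen by the calls in 3 lists, so their absence from the control HIF-2α list and from the HIF-1α list follows from the choice and is given as a description. The comparisons below rest on what the choice did not use directly, which is the other 4 peak lists, the position and sequence of the sites, and the RNA of genes near them.

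HIF-1α and HIF-2α are oxygen-regulated subunits that each pair with HIF-1β (gene ARNT) to bind the core of the hypoxia response element (HRE), written ACGTG or GCGTG. The von Hippel-Lindau protein (VHL) marks both α subunits for degradation, and clear cell renal carcinomas that lose it accumulate them without hypoxia. Both dimers read the same core letters, and HIF-2α is known for binding distal enhancers more often than HIF-1α, which favours promoters.

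786-O is an established line from a VHL-defective clear cell renal carcinoma that makes HIF-2α but only truncated HIF1A transcripts. Pools of these cells, and not clones, were transduced with lentivirus from the bicistronic vector pRRL.IRES.EGFP, either empty (control), with a HIF-1α cDNA (re-expressing) or with a HIF-2α cDNA (overexpressing), so that all 3 pools lack VHL function and all carry a vector. ChIP-seq gave 1 library per antiserum and pool, using HIF-2α and HIF-1β antisera in each pool and a HIF-1α antiserum in re-expressing cells. RNA-seq gave 3 libraries per pool. The peak files hold positions only, as windows of 2500 bases on GRCh37 (hg19) with no height or score, and the depth of the ChIP libraries is unknown. No p-value was computed on peaks, since each condition has 1 ChIP library, and the 95% Wilson intervals in brackets cover counting error only.

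RNA libraries held 27852754 to 54287621 counts. HIF1A, the re-expressed gene, had 171, 1681 and 472 CPM (counts scaled to a common library total) in re-expressing libraries 1, 2 and 3, against 30.4, 36.7 and 152 in the control libraries and 15.3, 30.3 and 17.5 in the overexpressing ones. The re-expressing libraries were all above the controls, but library 1 of the former lay close to library 3 of the latter. The renal lineage factor PAX8 ranged from 175 to 364 CPM over the 9 libraries and LRP2, a receptor of the proximal tubule, from 0 to 0.0698 CPM, while no leucocyte or endothelial marker checked exceeded 0.837 CPM. The labels do not say that the 3 libraries of a pool came from separate cultures, so p-values measure only the spread between these libraries.

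The following gained sites, each near a gene described further on, show the letters that the sites share or lack. The 300 bases around each window midpoint are printed on the plus strand of GRCh37, with matches to the HRE core or to the AP-1 site (TGACTCA), on either strand, in capitals. Only sites with such a match were printed, while 34.8% of all gained sites held neither. The site in an intron of GRIN2A, at chr16:10187614-10187913, was chosen for its 5 HRE core matches, of which 2 are the opposite strands of a palindromic E-box (CACGTG).
GRIN2A site: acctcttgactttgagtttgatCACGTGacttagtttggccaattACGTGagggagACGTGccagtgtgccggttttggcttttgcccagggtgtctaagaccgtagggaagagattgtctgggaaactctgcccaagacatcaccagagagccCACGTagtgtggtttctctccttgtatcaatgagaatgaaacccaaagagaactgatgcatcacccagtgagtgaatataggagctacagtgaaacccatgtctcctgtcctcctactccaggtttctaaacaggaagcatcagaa
The sites in introns of COL27A1 (chr9:117041134-117041433) and EPHB1 (chr3:134604869-134605168) hold both kinds of letters.
COL27A1 site: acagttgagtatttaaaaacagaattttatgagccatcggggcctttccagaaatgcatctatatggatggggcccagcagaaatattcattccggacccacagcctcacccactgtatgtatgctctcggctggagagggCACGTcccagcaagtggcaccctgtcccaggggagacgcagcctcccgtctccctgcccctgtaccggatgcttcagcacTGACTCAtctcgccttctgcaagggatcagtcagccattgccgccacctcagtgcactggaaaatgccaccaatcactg
EPHB1 site: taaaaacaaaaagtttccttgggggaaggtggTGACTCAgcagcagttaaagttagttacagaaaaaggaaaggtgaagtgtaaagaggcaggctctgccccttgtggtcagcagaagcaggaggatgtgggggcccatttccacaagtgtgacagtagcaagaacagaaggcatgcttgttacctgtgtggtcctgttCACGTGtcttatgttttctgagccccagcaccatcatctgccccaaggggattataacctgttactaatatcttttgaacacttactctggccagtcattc
The intergenic site beyond COL6A3 (chr2:238207441-238207740) holds an AP-1 match and no HRE core.
COL6A3 site: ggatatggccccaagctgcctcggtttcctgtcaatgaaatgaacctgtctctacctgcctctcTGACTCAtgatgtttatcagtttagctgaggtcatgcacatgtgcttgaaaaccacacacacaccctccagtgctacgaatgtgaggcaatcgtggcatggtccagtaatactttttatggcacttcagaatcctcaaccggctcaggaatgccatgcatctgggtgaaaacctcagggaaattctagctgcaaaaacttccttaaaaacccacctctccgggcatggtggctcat
The sites in introns of EGFR (chr7:55212731-55213030) and WNT5A (chr3:55522315-55522614) hold HRE core letters and no AP-1 match.
EGFR site: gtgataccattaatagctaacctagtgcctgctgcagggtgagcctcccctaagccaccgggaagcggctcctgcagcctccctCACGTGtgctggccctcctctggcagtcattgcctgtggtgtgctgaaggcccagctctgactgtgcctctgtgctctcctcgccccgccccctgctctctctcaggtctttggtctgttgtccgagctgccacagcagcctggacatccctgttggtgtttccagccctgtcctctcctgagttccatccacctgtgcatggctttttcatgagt
WNT5A site: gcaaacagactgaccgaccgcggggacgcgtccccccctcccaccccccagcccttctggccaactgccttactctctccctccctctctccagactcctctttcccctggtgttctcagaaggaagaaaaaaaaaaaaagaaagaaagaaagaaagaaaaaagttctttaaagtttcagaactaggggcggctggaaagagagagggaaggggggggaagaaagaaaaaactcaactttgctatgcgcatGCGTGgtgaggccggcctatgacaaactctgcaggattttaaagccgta

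The rule has a sharp threshold, and few sites lay near it. The gained site closest to a control HIF-2α peak, at chr1:157937187-157939686, was separated from it by 14 bases, and the next at chr2:38390898-38393397 by 175 bases. Just outside the rule, a site at chr5:14155854-14158353 shared 22 bases with a control HIF-2α peak and was therefore not counted. On the side of HIF-1α, the gained site in WNT5A, at chr3:55521215-55523714, ended 184 bases from the nearest HIF-1α peak. Most gained sites were far from such neighbours. The median distance to the nearest control HIF-2α midpoint was 179 kb, 33 of the 345 sites (9.57%) lay within 10 kb of a control HIF-2α site and 96 (27.8%) within 50 kb. They were also scattered, since only 10 had another gained site within 50 kb, as 5 pairs, and there was no run of 3 or more.

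The comparison with the other lists addressed whether HIF-2α and its partner were called at the gained sites in any other library. The other HIF-2α sites in that list served as the reference, namely the 186 gained with a HIF-1α peak, the 372 kept from the control cells without HIF-1α and the 447 kept with HIF-1α. HIF-2α of the overexpressing cells was called at 198 of the 345 gained sites (57.4% [52.1 to 62.5]), against 61.8% of the sites gained with HIF-1α, 95.2% of those kept without it and 97.5% of those kept with it. In the opposite direction, 197 of 3805 HIF-2α peaks of overexpressing cells that were absent from the control cells overlapped a gained site (5.18%). The intervals of the gained sites with and without HIF-1α overlapped, and both lay below those of the kept sites. Kept sites were by definition also called for HIF-2α in control cells, so the choice bears on this order. How much of it follows from the choice was not tested. Where only midpoints within 250 bases counted as shared, the share at the gained sites was 36.2%.

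HIF-1β, the partner without which neither α subunit binds DNA as a HIF dimer, was called in control cells at 211 of the 345 gained sites (61.2% [55.9 to 66.2]), although HIF-2α was not called there. This share was 87.6% at sites gained with HIF-1α, 94.1% at those kept without it and 98.9% at those kept with it. In the re-expressing cells, where HIF-2α was called at every one of them by definition, HIF-1β was called at 57 gained sites (16.5% [13.0 to 20.8]), compared with 48.9%, 42.7% and 68.2% of the other kinds in the same order. In the overexpressing cells the share was 25.2% [20.9 to 30.1], compared with 75.3%, 62.6% and 96.6%. The gained sites thus had the lowest share in each of the 3 HIF-1β lists, with intervals that did not overlap those of any other kind, as the plot of shares by kind of site shows. The choice bears on this order. It required that HIF-2α was not called in control cells and HIF-1α not in re-expressing cells, and HIF-1β is the partner of both. How much of the order follows from the choice was not tested.

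**Figure D1:**
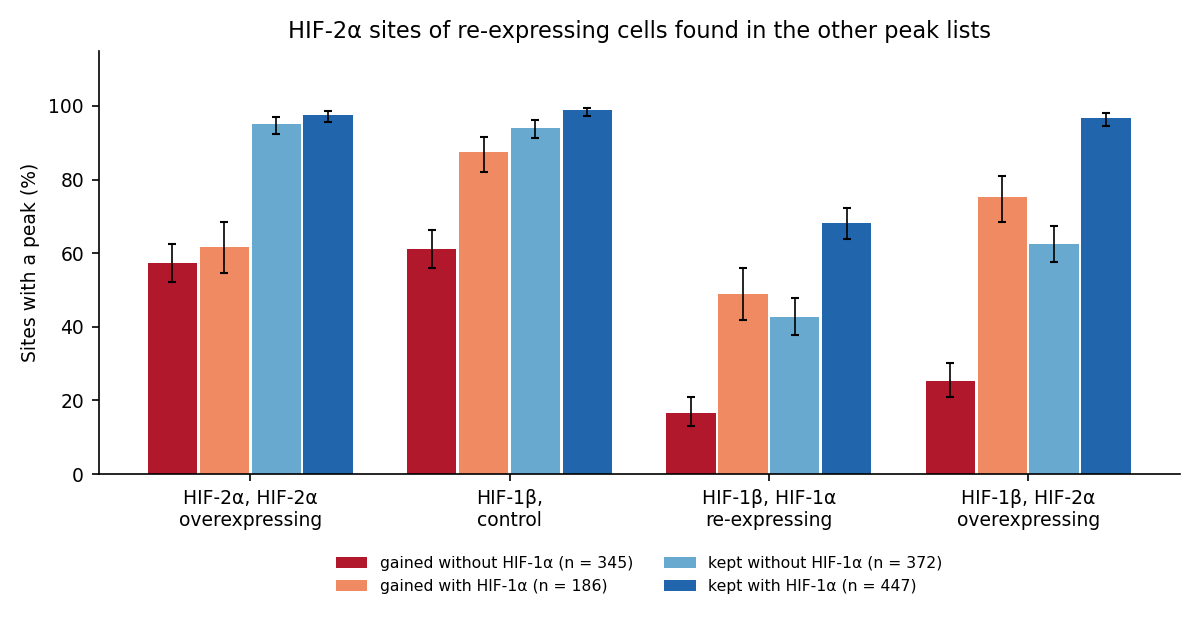
Percent of HIF-2α sites in re-expressing cells (y axis) with at least 1 base in a peak of each list that the rule did not use (x axis). Bars show the 4 kinds of site and error bars the 95% Wilson interval; the sites gained without HIF-1α lie lowest in all 3 HIF-1β lists, at 61.2%, 16.5% and 25.2%.

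The HIF-1β list of the re-expressing cells was the one nearest to promoters, with 83.1% of its 5807 peaks within 1 kb of a transcription start site, against 40.1% of the 6572 peaks of the control list. The share of gained sites with a peak of this list was nevertheless alike on both sides of a 5 kb limit, at 16.1% [10.7 to 23.6] of the 124 sites within 5 kb of a start site and 16.7% [12.4 to 22.2] of the 221 farther away. Of the sites kept without HIF-1α, 45.6% [37.1 to 54.3] within 5 kb and 41.3% [35.3 to 47.5] beyond it had such a peak, so the gained sites were lower at either distance. Of the sites gained with HIF-1α, 58.2% [49.7 to 66.2] within 5 kb had a peak of this list but only 25% [15.2 to 38.2] of the 52 beyond it, and there the interval overlapped that of the gained sites without HIF-1α. By signal, the paper reported little change of HIF-2α or HIF-1β at control HIF-2α sites after re-expression. HIF-1β calls at the sites kept without HIF-1α nevertheless stood at 94.1% in control and 42.7% in re-expressing cells. A missing call is therefore not read here as missing binding.

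The gained sites fell into many combinations of peaks. The commonest was a peak in none of the other 4 lists, at 73 sites (21.2% [17.2 to 25.8]), compared with 2.69% of the sites gained with HIF-1α and 1.34% of those kept without it. Next came HIF-2α of overexpressing cells with HIF-1β of control cells only (67 sites), HIF-2α of overexpressing cells alone (48 sites), HIF-1β of control cells alone (40 sites) and HIF-2α and HIF-1β of overexpressing cells with HIF-1β of control cells (40 sites). Peaks in all 4 lists were found at 23 gained sites (6.67%), compared with 65.5% of the sites kept with HIF-1α. Where a gained site shared a peak with another list the midpoints were close, with a median separation of 175 bases for HIF-2α of overexpressing cells and 222 bases for HIF-1β of control cells. The HIF-2α of the overexpressing cells was called more often at gained sites with HIF-1β in control cells (69.2% [62.7 to 75]) than at those without (38.8% [31.0 to 47.3]).

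**Figure D2:**
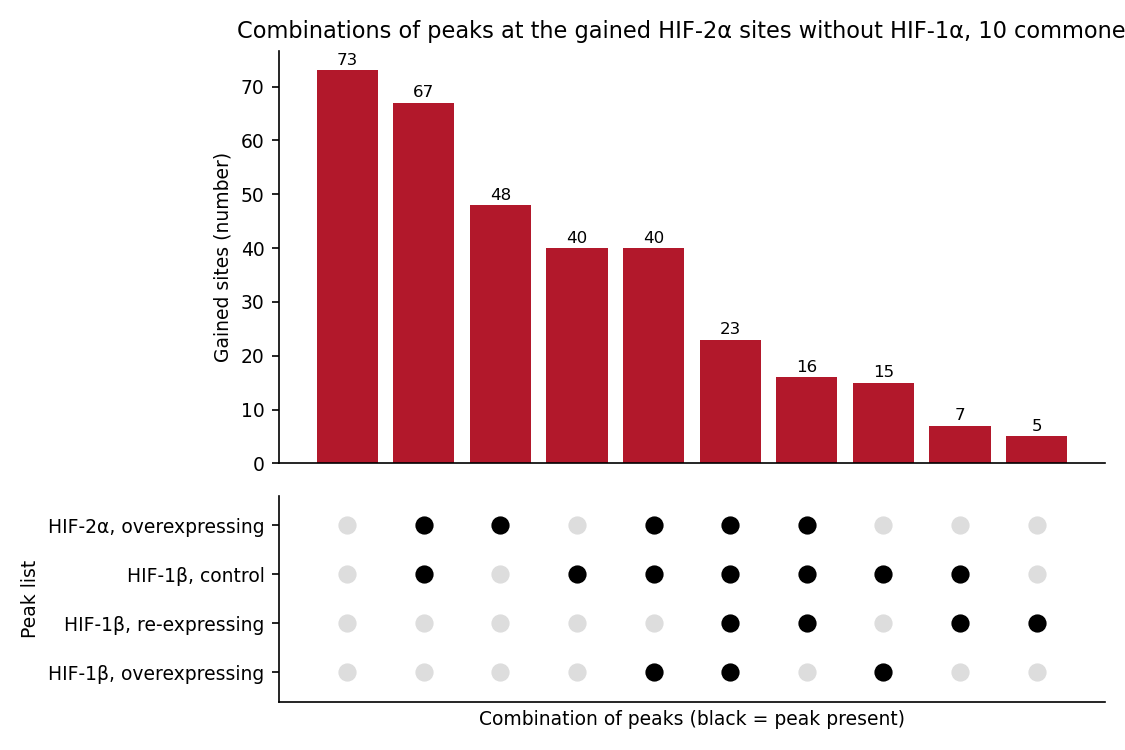
Number of the 345 gained sites (bars, y axis) with each combination of peaks in the 4 lists that the rule did not use (x axis, 10 commonest), where a black dot in the lower panel marks a peak of that list. The tallest bar is the 73 sites without a peak in any of them, followed by 67 sites with HIF-2α of overexpressing cells and HIF-1β of control cells.

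The position of the gained sites resembled that of the kept sites without HIF-1α and not that of sites with HIF-1α. Their midpoints lay a median of 8.60 kb from the nearest annotated start site (quartiles 2.72 and 20.3 kb), compared with 9.86 kb for sites kept without HIF-1α, 3.78 kb for sites kept with it and 0.988 kb for sites gained with it. Within 5 kb of a start site lay 35.9% [31.1 to 41.1] of the gained sites, against 33.6% [29.0 to 38.5], 55.3% [50.6 to 59.8] and 72.0% [65.2 to 78.0] in that order. The choice bears on this order, since the HIF-1α list used by the rule had 74.1% of its peaks within 1 kb of a start site. The 3805 new HIF-2α sites of the overexpressing cells, which were chosen without regard to HIF-1α, had 47.1% within 5 kb. When only start sites of protein-coding genes counted, 22.0% of the gained sites lay within 5 kb. By the annotation, 155 gained midpoints (44.9%) lay in introns of protein-coding genes, 111 (32.2%) between genes, 8 in exons annotated as UTR and 7 in other exons of protein-coding genes.

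**Figure D3:**
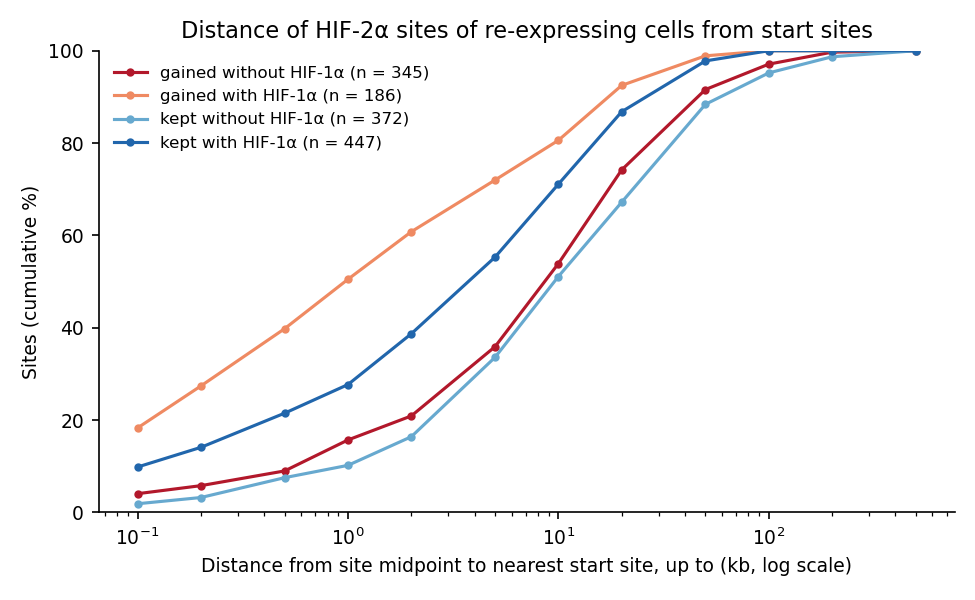
Cumulative percent of HIF-2α sites in re-expressing cells (y axis) against the distance from the midpoint to the nearest start site in kb (x axis, log scale), for the 4 kinds of site. The curve of the sites gained without HIF-1α follows that of the sites kept without HIF-1α, with 35.9% and 33.6% within 5 kb, and lies below both curves of sites with HIF-1α.

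The motif search addressed which binding letters the gained sites hold. Within 150 bases of the midpoint, 172 of the 345 gained sites (49.9% [44.6 to 55.1]) held an HRE core, the lowest share among the 4 kinds of site, compared with 64.0% [59.0 to 68.7] of the sites kept without HIF-1α, 71.5% of those gained with it and 73.6% of those kept with it. The share was nonetheless above that in the flanks, since 29.0% and 26.7% of the windows of the same length centred 2 kb to the left and right held one. New HIF-2α sites of the overexpressing cells held an HRE core in 42.9% [41.3 to 44.5] of cases, all control HIF-2α sites in 59.7% and all HIF-1α sites in 65.4%. The choice left out sites called for HIF-1α or for HIF-2α in control cells, so it bears on the order of the 4 kinds of site. How much of that order follows from the choice was not tested. The central 300 bases of the gained sites had a median GC content of 48.3%, near the 47.0% of the sites kept without HIF-1α and below the 60.2% of the sites gained with it, and the HRE core holds a CpG.

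AP-1, the dimer of JUN and FOS proteins that marks many active enhancers, had its site TGACTCA in 98 gained sites (28.4% [23.9 to 33.4]), compared with 4.35% and 3.48% of the flanking windows. This share was near those of the sites kept with HIF-1α (28.2%) and without it (25.5%), and its interval overlapped theirs and also that of the sites gained with HIF-1α, which held the letters in 18.8% [13.9 to 25]. As a wider reference, the whole HIF-1β list of the control cells had 14.9%, the HIF-1α list 7.73% and the HIF-1β list of the re-expressing cells 4.96%. The letters of TEAD factors (GGAATG), which read Hippo signalling, were in 29.6% of gained sites against 15.1% and 14.2% of flanks, and those of RUNX factors (TGTGGTT) in 15.9% against 6.96% and 4.64%. In the sites kept without HIF-1α both motifs were also more frequent in the centres than in the flanks. TEAD letters were in 24.5% of these centres against 15.1% and 15.9% of flanks, and RUNX letters in 14.5% against 5.91% and 5.38%. The matches gathered at the midpoints, where AP-1 letters reached 1.16 and 1.19 matches per kb in the 100 bases to either side, compared with 0.348 and 0.145 per kb in the outermost bins.

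**Figure D4:**
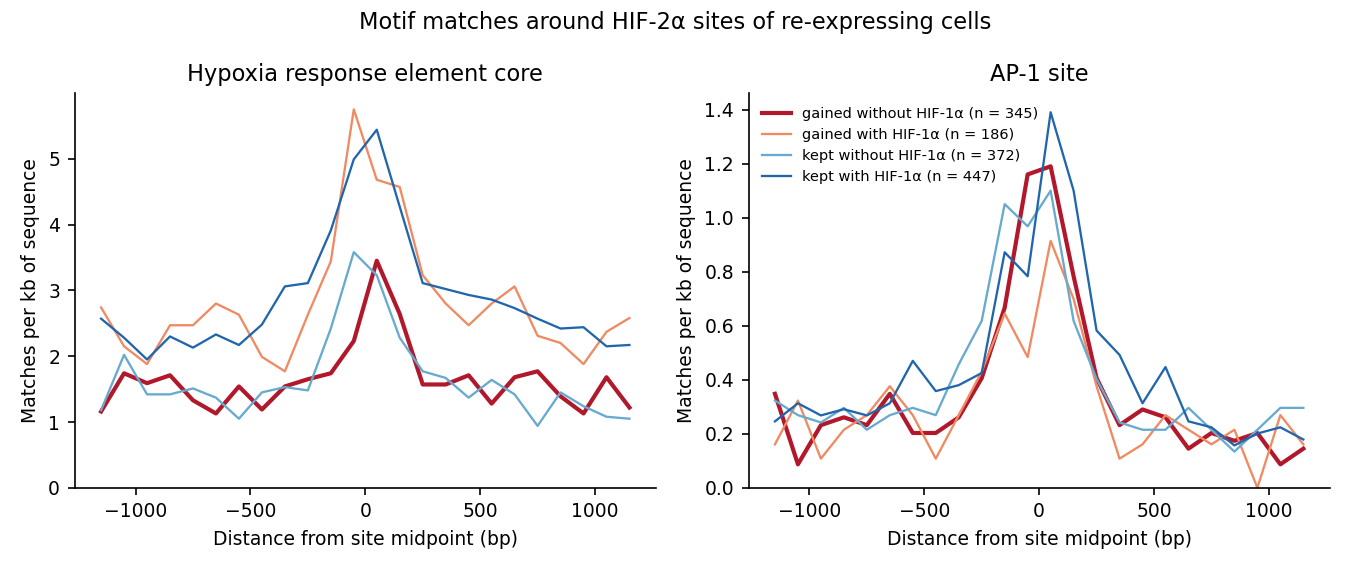
Matches per kb of sequence (y axis) to the HRE core (left) and the AP-1 site (right) in bins of 100 bases by distance from the midpoint (x axis, bp), for the 4 kinds of HIF-2α site in re-expressing cells. Both motifs peak at the midpoint of the sites gained without HIF-1α, whose HRE matches reach 3.45 per kb, below the 5.75 and 5.44 per kb of the sites gained and kept with HIF-1α.

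An HRE core and an AP-1 site were found together at 45 gained sites (13.0%), as in the printed sites of COL27A1 and EPHB1, and neither was found at 120 (34.8%). HRE letters went with HIF-1β. Of the 57 gained sites with HIF-1β in the re-expressing cells 68.4% [55.5 to 79.0] held an HRE core, compared with 46.2% [40.5 to 52.0] of the 288 without, and of the 211 with HIF-1β in control cells 56.4% [49.7 to 62.9] held one, compared with 39.6% [31.7 to 48.0] of the 134 without. AP-1 letters went with HIF-2α of the overexpressing cells, which was called at 68.4% [58.6 to 76.7] of the 98 gained sites with them and at 53.0% [46.8 to 59.2] of the 247 without. For that list the HRE core made little difference, at 57.0% with and 57.8% without. The 73 gained sites in none of the other 4 lists still held an HRE core in 42.5% [31.8 to 53.9] and an AP-1 site in 21.9% [14 to 32.7] of cases.

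Gene expression was then examined near the gained sites. Of the genes counted, 343 were tested and had an annotated start site within 50 kb of a gained site, and these lay at 227 of the 345 sites. Start sites of every annotated transcript of a gene counted. A distance is therefore to the nearest of them, which need not be the main promoter of the gene. In the edgeR quasi-likelihood test without a replicate block, no gene at the gained sites passed a Benjamini-Hochberg adjusted p of 0.05 after HIF-1α re-expression, as was so for all 13755 tested and placed genes (0% higher and 0% lower). Before adjustment 45 genes at gained sites (13.1%) were higher and 15 (4.37%) lower with a p under 0.05, against 11.0% and 8.35% of all genes. With the replicate number as a block, since libraries of the same number deviated together across the pools, 28 genes at gained sites (8.16%) rose and 10 (2.92%) fell, against 5.42% and 2.62% of all genes. DESeq2 without a block called 19 (5.54%) higher and 7 (2.04%) lower, against 3.46% and 1.91%. The 138 nearest genes of the gained sites gave 16 rises (11.6%) and 5 falls (3.62%) in the blocked fit. Libraries did not overlap for 50 higher (14.6%) and 26 lower (7.58%) genes, against 12.7% and 11.4%. Without replicate 1 the blocked fit called 11 higher (3.22%) and 2 lower (0.585%) genes at gained sites, against 1.75% and 0.314% of all genes. Without replicate 2 or replicate 3 it called 0 of them in either direction, against 0% of all genes without replicate 2 and 0.00735% higher and 0% lower without replicate 3.

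The median log2 fold change of these 343 genes was 0.094, beside 0.032 over all genes, and 56.3% of them against 52.0% of all genes lay above 0. The medians of the replicate pairs were 0.035, 0.075 and 0.133 (SD 0.049, n = 3). The median of these genes was 0.023 without re-expressing library 3 and 0.155 without re-expressing library 1. Genes at the other kinds of site gave, in the blocked fit, 7.67% higher and 3.41% lower at sites gained with HIF-1α, 5.54% higher and 4.89% lower at sites kept without it, and 6.27% higher and 3.05% lower at sites kept with it. Of the 343 genes, 205 also had a HIF-1α site and 103 a control HIF-2α site within 50 kb. The 123 genes with neither had 8.13% higher and 3.25% lower, and the other 220 had 8.18% and 2.73%. The difference between these shares was not tested. Genes whose nearest gained site held an HRE core had a median of 0.172 (n = 166) and those whose site did not 0.033 (n = 177), and in the blocked fit 14 genes of each rose (8.43% and 7.91%) while 2 (1.20%) and 8 (4.52%) fell, a difference that was not tested.

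After HIF-2α overexpression, in which 57.4% of the gained sites were also occupied, the same genes had a median log2 fold change of -0.039, beside -0.024 over all genes. This comparison uses the same 3 control libraries. The fit without a block called 0% of all genes in either direction and 0 genes at gained sites, where the same edgeR test put 16 higher and 13 lower with a p under 0.05 before adjustment, against 3.32% and 2.57% of all genes. DESeq2 called 2 higher and 3 lower, against 0.254% and 0.174%. With the replicate block 0 genes rose and 3 fell at gained sites, against 0.116% and 0.145% of all genes. The 3 that fell are S100A2, the collagen gene COL14A1 and the prostaglandin transporter gene SLCO2A1. COL14A1 and SLCO2A1 are named because the count is small, after their values were seen, and SLCO2A1 also rose after re-expression in the blocked fit (log2 fold change 2.27 ± 0.32 SE, adjusted p of 0.0264).

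The listed HIF targets were not among the genes near gained sites. None of the 36 tested genes in a list of HIF targets, none of the 16 glycolytic enzymes and none of the 9 AP-1 subunits had a start site within 50 kb of one, while 2.49% of all tested genes did. At that share, lists this short would hold few such genes or none. The choice also left out sites with a HIF-1α peak or a control HIF-2α peak. The fit without the block called 0 genes of any list, against 0% of all genes in either direction. In the blocked fit, which called 5.42% of all genes higher and 2.62% lower, 7 of the 36 HIF targets rose and none fell. Of the 26 growth factors and receptors, 4 lay within 50 kb (EGFR, MET, TGFB2 and TGFBR2), and 2 of the 26 rose in the blocked fit, with 1 of them at a gained site. Of 30 adhesion and matrix genes, ITGB5 and CAV1 lay within 50 kb and neither passed the test, while 5 of the 30 rose. EPAS1, which encodes HIF-2α itself, held a gained site in an intron (chr2:46537231-46539730), 13.6 kb from a start site, with no HRE core, no AP-1 site and no peak in the other 4 lists. A HIF-1α site lay nearer, 0.927 kb from an EPAS1 start site. EPAS1 had 575, 627 and 397 CPM in the re-expressing and 456, 224 and 162 CPM in the control libraries, which overlapped, and the difference did not pass (log2 fold change 0.93 ± 0.54 SE, adjusted p of 0.365, or 0.154 with the replicate block).

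The other HIF subunit and VHL genes had no gained site within 50 kb. ARNT had 37.1, 47.0 and 69.9 CPM in the re-expressing and 38.6, 42.6 and 33.1 CPM in the control libraries, and the groups overlapped. The shares of HIF-1β peaks above are therefore set beside an ARNT difference of 0.43 ± 0.25 SE on the log2 scale (adjusted p of 0.366), whose part in those shares was not tested. VHL, whose protein is not functional in these cells, ranged from 79.5 to 107 CPM and from 74.6 to 88.3 CPM. HIF1A differed by 3.41 ± 0.87 SE (adjusted p of 0.149, or 0.0418 with the block).

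Among genes at gained sites with at least 5 CPM and no overlap between re-expressing and control libraries, 40 of 281 were higher (14.2%) and 20 lower (7.12%), against 11.7% and 13.3% of all genes at that level, and 11 of the 12 with the highest and the 6 with the lowest log2 fold change are described. None of these 17 passed without the block, at adjusted p values of 0.149 to 0.263, and all but SHISA2 passed with it. Their log2 fold changes and SE are from the fit without the block, also where only the blocked adjusted p is given. GRIN2A, an NMDA receptor subunit gene, held a gained site 27.7 kb from a start site, with HIF-1β called there in control and overexpressing cells. It had 5.61, 15.1 and 35.1 CPM in the re-expressing, 1.76, 2.08 and 4.06 CPM in the control and 0.818, 6.0 and 2.54 CPM in the overexpressing libraries. The re-expressing libraries were all above the controls but spread widely. The log2 fold change was 2.82 ± 0.80 SE (adjusted p of 0.162), or 2.54 ± 0.52 SE with the block (adjusted p of 0.0364).

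COL6A3, which encodes the α3 chain of collagen VI, had an intergenic gained site 31.2 kb from the nearest of its annotated start sites. This site had AP-1 letters and peaks of HIF-2α of overexpressing and HIF-1β of control cells. Its libraries gave 1877, 1282 and 1700 CPM in the re-expressing, 497, 263 and 245 CPM in the control and 356, 1028 and 118 CPM in the overexpressing cells. The re-expressing group was far from the controls, and the log2 fold change was 2.27 ± 0.65 SE (adjusted p of 0.0454 with the block). COL27A1, a fibrillar collagen gene, had its gained site 10.2 kb from a start site and gave 30.6, 82.3 and 92.5 CPM against 16.8, 22.8 and 12 CPM in controls. Its overexpressing libraries, at 22.6, 38.4 and 48.8 CPM, overlapped both groups. The log2 fold change after re-expression was 1.99 ± 0.44 SE (adjusted p of 0.0342 with the block).

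EGFR, the epidermal growth factor receptor gene, held a gained site in an intron 18.6 kb from a start site, which was in none of the other 4 lists. It gave 301, 251 and 209 CPM in the re-expressing, 125, 90.6 and 38.1 CPM in the control and 152, 372 and 134 CPM in the overexpressing libraries. Both groups with a HIF cDNA lay above the controls, with log2 fold changes of 1.58 ± 0.48 SE (adjusted p of 0.0366 with the block) and 1.38 ± 0.48 SE (adjusted p of 0.16 with the block). A control HIF-2α site lay 1.47 kb and a HIF-1α site 0.569 kb from an EGFR start site. HIF-1α sites also lay near start sites of EPHB1 (0.211 kb), PTPRM (0.230 kb), TRIM9 (0.430 kb), COL27A1 (0.716 kb) and WNT5A (1.55 kb). For all of these but WNT5A, the HIF-1α site was nearer than the gained site. Among the genes that fell, ARPC4 (0.006 kb) and SSBP1 (0.299 kb) had one near. The nearest lay 128 to 376 kb from GRIN2A, COL6A3, MAB21L3 and SHC3, and 59.5 to 750 kb from SHISA2, EBP, FHL2 and S100A2. TTLL3 was intermediate. Which site goes with a change was not tested. EPHB1, an ephrin receptor gene, gave 43.9, 28.4 and 23.1 CPM in the re-expressing, 17.5, 4.72 and 11.2 CPM in the control and 4.77, 2.23 and 1.52 CPM in the overexpressing libraries. The re-expressing libraries were all above the controls and the overexpressing ones near or below the lowest of them, with log2 fold changes of 1.51 ± 0.53 SE (adjusted p of 0.0365 with the block) and -1.97 ± 0.54 SE (adjusted p of 0.0563 with the block). PTPRM, a receptor tyrosine phosphatase gene that mediates cell contact, gave 163, 126 and 188 CPM against 92.9, 53.5 and 46.0 CPM in controls. Its gained site lay between genes, 25.4 kb from the nearest of its annotated start sites, and was in none of the other 4 lists.

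WNT5A, the gene of a noncanonical Wnt ligand, held its gained site 1.13 kb from a start site, with HIF-1β called there in the re-expressing cells but in neither other pool. The libraries gave 39.3, 22.7 and 36.5 CPM in the re-expressing, 16.6, 7.51 and 14 CPM in the control and 8.14, 8.72 and 7.63 CPM in the overexpressing cells. Only the re-expressing cells stood above the controls, with a log2 fold change of 1.37 ± 0.33 SE (adjusted p of 0.034 with the block), compared with -0.64 ± 0.33 SE after overexpression, and the difference between these 2 effects was not tested. SHC3, an adaptor gene of receptor tyrosine kinases, had its site 2.09 kb away with 2 HRE core matches and gave 21.5, 14.3 and 33.6 CPM against 10.0, 5.69 and 13.1 CPM. The remaining 3, TTLL3, MAB21L3 and TRIM9, had log2 fold changes of 1.43, 1.42 and 1.26.

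The 6 lowest log2 fold changes ran from -1.41 for SHISA2, which did not pass the test, to -0.91 for SSBP1. S100A2, a calcium-binding protein gene, had its gained site 0.128 kb from a start site, with 2 AP-1 matches and with HIF-2α and HIF-1β of overexpressing and HIF-1β of control cells. It gave 26.4, 16.5 and 23.4 CPM in the re-expressing, 39.9, 45.1 and 51.8 CPM in the control and 18.9, 9.98 and 15.7 CPM in the overexpressing libraries. Both groups with a HIF cDNA were below every control, with log2 fold changes of -1.04 ± 0.28 SE (adjusted p of 0.0365 with the block) and -1.62 ± 0.29 SE (adjusted p of 0.0357 with the block). EBP, the sterol isomerase gene of cholesterol synthesis, gave 71.1, 73.7 and 79.8 CPM against 160, 188 and 150 CPM in controls, a log2 fold change of -1.15 ± 0.23 SE (adjusted p of 0.0315 with the block). Its gained site, 34.2 kb away, had peaks in all 4 other lists. FHL2, a LIM domain cofactor gene, gave 203, 176 and 187 CPM against 384, 267 and 530 CPM, with a log2 fold change of -1.06 ± 0.37 SE.

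A gained site in a UTR exon on chromosome 3, at a position spanned by transcripts of OGG1 and TADA3, had neighbours that moved in opposite directions. TTLL3, 28 kb away, gave 6.0, 6.98 and 9.02 CPM against 2.92, 2.79 and 2.47 CPM in controls, while ARPC4, an actin-nucleating Arp2/3 subunit gene 12.4 kb away, gave 75.7, 97.4 and 36.5 CPM against 147, 186 and 198 CPM. The annotation also holds a readthrough gene that joins these neighbours, so reads may be split between them and both values are uncertain.

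**Figure D5:**
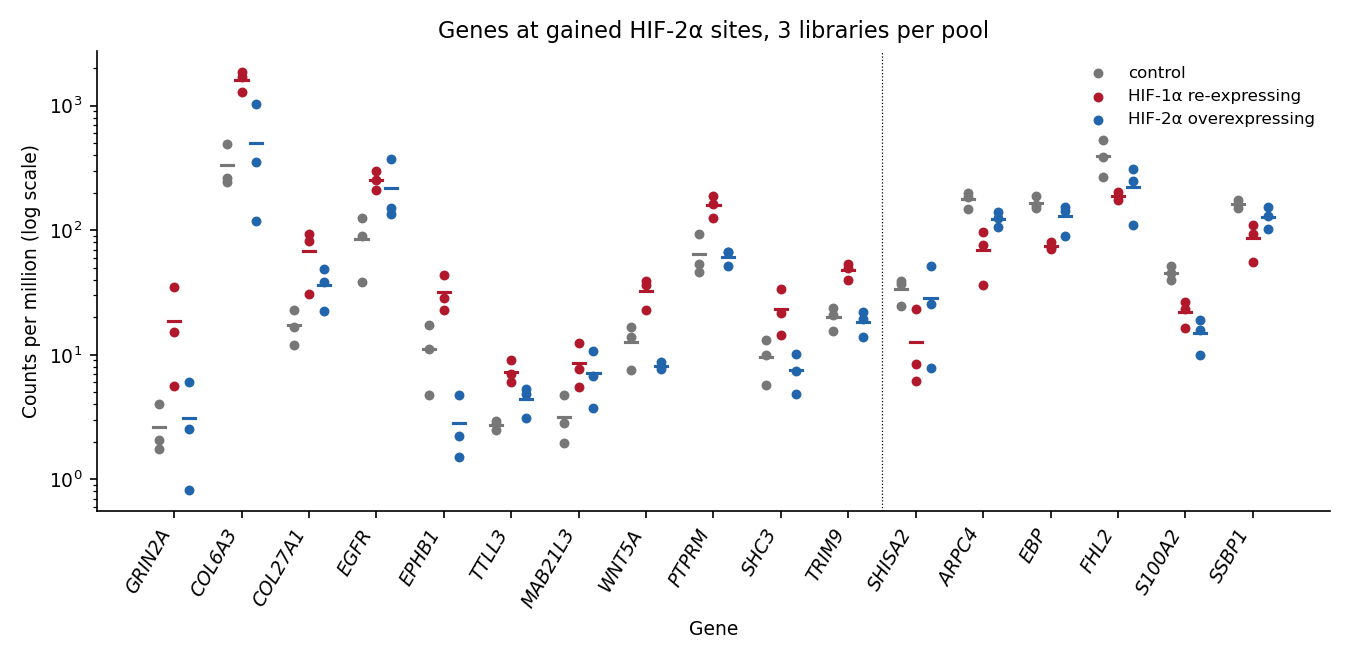
CPM (y axis, log scale) of the 17 genes at gained sites (x axis) in the 3 libraries of each pool, shown as points with a short line at the mean, with 11 of the 12 highest log2 fold changes left and the 6 lowest right of the dotted line. By the rule that chose them, control and re-expressing libraries do not overlap for any of the 17; the overexpressing libraries overlap the controls for COL6A3, and all lie above them for EGFR and below them for S100A2.

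Listed genes with a start site within 10 kb of a gained site were CAV1 and TGFB2. CAV1, the gene of the main caveolar coat protein, had a gained site in an intron 2.04 kb from a start site with AP-1 letters and peaks in all 4 other lists, and gave 443, 992 and 542 CPM against 473, 918 and 820 CPM in controls. A HIF-1α site (0.045 kb) and a control HIF-2α site (0.136 kb) lay nearer to a CAV1 start site. TGFB2, a growth factor gene, had a gained site 0.212 kb from a start site and gave 74.4, 183 and 270 CPM against 60.7, 193 and 94.6 CPM. In both genes the groups overlapped and no test was passed, with adjusted p values of 0.826 and 0.503 without and 0.608 and 0.292 with the block.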

How the data were processed

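Per the submitters' processing notes and the study's methods, ChIP reads were trimmed (Trim Galore 0.3.3), aligned to GRCh37 (BWA 0.7.5a-r405) and filtered (SAMtools 0.1.19, bedtools 2.17.0, Picard 1.106), and regions called by both MACS and T-PIC were kept. The authors deposited 7 such lists as positions only. RNA reads were aligned with TopHat2 2.0.8b and Bowtie 1.0.0, and the authors deposited raw counts per gene from HTSeq 0.5.4p3. No column of other samples was present (0).

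Windows were compared with Python 3.11.15 (NumPy 2.4.6, SciPy 1.17.1, pandas 2.3.3). A shared base counted as a shared peak. Start sites came from GENCODE v44lift37, and letters were read from the GRCh37 genome within 150 bases of window midpoints, on both strands. Of the gene symbols, 20654 matched the annotation, 1366 matched through an older symbol or synonym and 1421 did not match. Counts of all 9 libraries were fitted together in edgeR 4.0.16 (R 4.3.3; filterByExpr, TMM, quasi-likelihood test, Benjamini-Hochberg adjustment over 14225 genes, threshold 0.05), with DESeq2 1.42.0 as an alternative. The edgeR fits were tried on simulated counts, and the window and motif searches on short constructed examples. Of these genes, 13755 had an annotated start site. Libraries of the same number in different pools deviated from their group means together (9 correlations of 0.348 to 0.652, against -0.478 to 0.0281 for 18 pairs of different numbers). The main fit had the pool as its only term and did not treat the numbers as pairs. A fit with the replicate block is therefore given beside results it changes. The labels do not say what a number stands for.

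Genes named are EPAS1, HIF1A, ARNT and VHL, listed genes within 10 kb of a gained site, and, among genes with a start site within 50 kb whose re-expressing and control libraries did not overlap and whose higher group averaged 5 CPM or more, the 12 highest and 6 lowest log2 fold changes. Of the 12 highest, 1 is not reported here. Regions named are those near such genes and at the threshold. The gained sites, gene lists and tests were chosen with earlier results of these data known, so no list is independent support.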

Additional observations from a re-analysis of the deposited data

How the results depend on the processing

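With at least 50% of the window required as overlap in the choice of sites there were 381 gained sites, and with gaps of up to 1000 bases counted as shared 331, and no share of peaks, start sites or motifs left its main interval. When only midpoints within 250 bases counted as shared, the shares with HIF-2α of overexpressing cells and HIF-1β of control, re-expressing and overexpressing cells were 36.2%, 32.5%, 8.99% and 17.4%, and 42.6% had none of the 4. With start sites of protein-coding genes only, or with 1 start site per gene, 22.0% lay within 5 kb. Searching 75 bases, 500 bases or the whole window to find motifs gave HRE cores at 30.7%, 79.4% and 95.9% and AP-1 sites at 16.2%, 44.1% and 58.3% of gained sites. The longer spans hold more letters by construction.

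For genes near gained sites, the replicate block raised the count after re-expression from 0 to 28 higher and 10 lower genes and DESeq2 to 19 and 7. After overexpression the block gave 0 higher and 3 lower, and DESeq2 2 and 3. Leaving out all libraries of replicate 1, 2 or 3 with the replicate block, chosen after seeing the data, gave 0 to 11 higher and 0 to 2 lower genes after re-expression and 0 to 2 higher and 0 to 1 lower after overexpression, with fewer libraries in each fit. The median log2 fold change after re-expression was 0.153 over nearest genes only, 0.023 to 0.155 with 1 library left out and 0.047 to 0.166 with 1 replicate number left out under the block. RLE scaling, no filter on low counts and a fit of 6 libraries gave 0 calls, as did leaving out any 1 library without the block. Of 308 alternative values for 22 named genes, 270 stayed on their side of the threshold, 38 passed it where the main test did not, and none changed sign.

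The peak lists hold no signal and the ChIP depths are unknown, so how far a site missing from a list lay under the caller's threshold was not tested. Genes within 50 kb of a site are neighbours by position only.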

Other observations

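Some genes beside gained sites were singled out after their values were seen and are given as values only. WISP2, which encodes a secreted matricellular protein, has a start site 0.079 kb from a gained site with HIF-1β of control cells and gave 0.613, 6.17 and 39.7 CPM in the re-expressing libraries against 0.0776, 0 and 0.807 CPM in controls. The groups overlapped, and edgeR's log2 fold change of 5.69 ± 1.75 SE had an adjusted p of 0.167, or 0.0264 with the replicate block. CREG2 has a gained site in an intron 26.8 kb from a start site, with an HRE core and an AP-1 site, and gave 1.27, 7.29 and 2.08 CPM against 0.181, 0.256 and 0.339 CPM, with an adjusted p of 0.149, or 0.0315 with the block.

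SUSD1 and TNS3 each have more than 1 gained site within the gene. SUSD1 gave 46.5, 46.0 and 65.8 CPM in the re-expressing libraries against 28.5, 21.8 and 31.4 CPM in controls, an edgeR log2 fold change of 0.95 ± 0.23 SE with an adjusted p of 0.149, or 0.0363 with the block. TNS3, which encodes a focal adhesion protein, gave 98.6, 161 and 238 CPM against 81.8, 89.1 and 59.7 CPM, with an adjusted p of 0.162, or 0.0561 with the block. MET, the hepatocyte growth factor receptor gene, has an intronic gained site 11.7 kb from a start site with peaks in all 4 other lists, and gave 774, 751 and 540 CPM against 804, 720 and 401 CPM, which overlapped.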
